A study of Mus musculus with 9 samples.

Results

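The baseline described here is that of LSK cells carrying an empty vector, the cells that received no DNMT3A form in a study of the DNA methyltransferase DNMT3A and its R882H mutant. Its members are the 3 arrays labelled empty vector, of 9 in all. On each array, named probes were ranked by level, which is log2 processed intensity after subtraction of that array's own 75th percentile. A gene was called detected when at least 1 of its probes was well above background on all 3 arrays, absent when no probe was so on any, and intermittent otherwise. The calls are those of the scanner software. The other 6 arrays were 3 of wild-type DNMT3A and 3 of R882H. All 9 samples were C57BL/6 cells labelled with GFP through the vector, recovered from transplanted mice and sorted as LSK, and each array received cDNA amplified from 3.67 ng of total RNA. Nothing in the labels says that the replicates came from separate mice or transplants. An SD over the 3 arrays therefore measures how far these samples lie apart, and that distance may be technical. Every p-value below sets a difference of group means against such distances within the groups, so the same limit holds for it.

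LSK cells are bone marrow cells without markers of mature lineages that carry Sca-1 and the receptor Kit. The population holds blood stem cells and the multipotent progenitors that follow them, including progenitors already leaning to the myeloid or the lymphoid side. Such progenitors are known to transcribe some genes of several lineages at low level before they commit.

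The 3 arrays were alike in brightness. Between 53.4 and 57.6% of all probes on an array were well above background, no spot was saturated, and all 3 arrays lay on 1 slide together with 1 array of wild-type DNMT3A. The third array stood apart from the first and the second. On the first principal component of all 9 arrays, which held 29.6% of the variance, the empty vector arrays lay at -8.40, 13.2 and -53.1. Its label is also open to a doubt: in the authors' deposited value table the column named for it holds the values of a wild-type array, and its own scanner values stand in a column named for that wild-type array. The first and second arrays matched their own columns. Read in order, the table's columns hold the empty vector, then the R882H, then the wild-type arrays by their scanner labels. The values of array 3 thus stand next to those of arrays 1 and 2 there. Why names and values differ was not tested. Values are given by array below for the genes on which array 3 bears most, and list counts that moved by over 1.5 times without it are named.

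The sorting markers of the LSK gate were detected. Kit, the receptor for stem cell factor, had levels of 3.92, 4.38 and 3.84 on arrays 1, 2 and 3 (mean 4.05 ± 0.29, SD, n = 3, as for every ± below). It lay above 90.2% of detected genes. Ly6a, which encodes Sca-1, had 1.96, 1.99 and 2.36 (2.10 ± 0.23). Array 2 was the highest for Kit and array 3 for Ly6a. Cd34, a surface sialomucin lost from the most primitive mouse stem cells, had 5.26, 5.54 and 4.61 (5.14 ± 0.48). Flt3, a receptor of multipotent and lymphoid progenitors, had 1.79, 1.81 and 0.79 (1.46 ± 0.59). Both were lowest on array 3, and so was the dimmer probe of each gene: 3.11 against 4.16 and 4.14 for Cd34, and -0.60 against -0.19 and 0.29 for Flt3. Mpo, the peroxidase of azurophil granules, ran the other way with 7.09, 6.56 and 7.93 (7.19 ± 0.69) and was the highest of these 5 genes. Without array 3 the order of the means of these 5 probes was the same: Mpo, Cd34, Kit, Ly6a, Flt3.

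**Figure D1:**
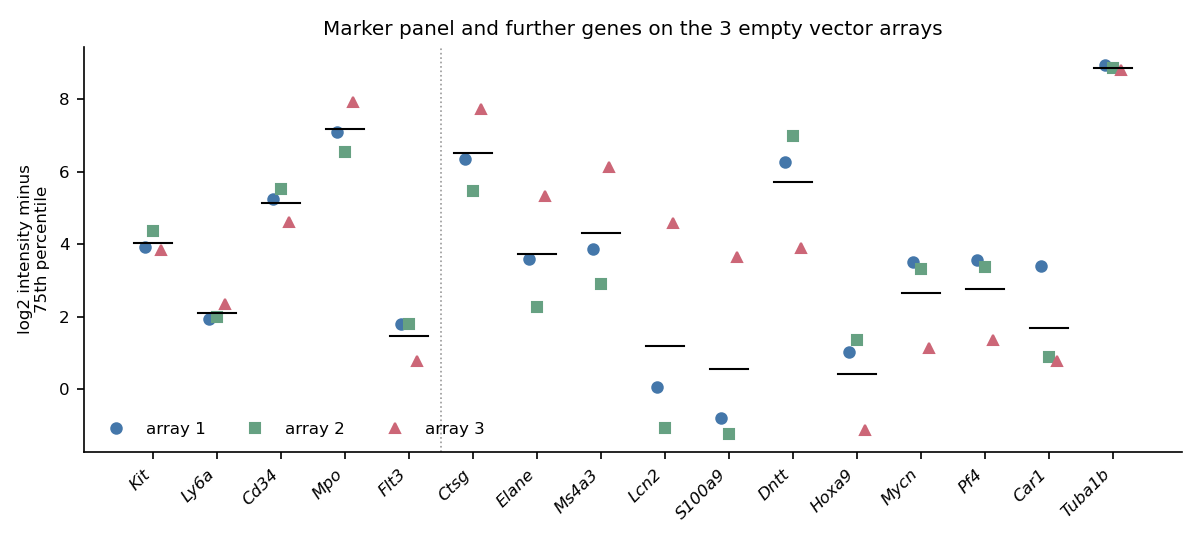
Levels on the 3 empty vector arrays (log2 intensity relative to the 75th percentile of each array) for the 5 panel genes (left of the dotted line) and 11 genes discussed in the text. Symbols are arrays 1 to 3 and black lines are their means. Array 3 is highest for Mpo, Ctsg, Elane, Ms4a3, Lcn2 and S100a9 and lowest for Dntt, Hoxa9, Mycn and Pf4.

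Of 20660 genes with a named probe, 12011 (58.1%) were detected, 2306 (11.2%) were intermittent and 6343 (30.7%) were absent. Single arrays had 13319, 12643 and 13366 genes well above background. Protein-coding genes were detected more often than long noncoding RNA genes, with 11652 of 19662 (59.3%) against 254 of 792 (32.1%). The dimmest value called well above background was -3.77, -3.44 and -3.85 on the 3 arrays. Detected genes ran from -3.53 to 10.26, with a median of 0.53 and quartiles of -1.07 and 2.21. Genes at the median included Mtmr6 (0.53 ± 0.04), a phosphoinositide phosphatase, and Fhl3 (0.53 ± 0.07), a LIM domain protein. A gene that was not well above background has only an upper bound, so no level is given for absent genes. An absent call also rests on the probes present. Of 5476 genes with 2 or more probes, 768 (14.0%) were detected by 1 probe and absent by another. Many absent genes named below had a single probe.

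The signal was concentrated in few genes. The 100 highest genes held 40.4% of the summed processed intensity of all detected genes, and the 1000 highest held 80.3%. The order of the highest genes depended on which probe stood for a gene. By the brightest probe, the list was led by Sp110 (10.26 ± 0.10), Pak4 (10.16 ± 0.05), Septin3 (10.04 ± 0.02), Timmdc1 (10.01 ± 0.04) and Ms4a4c (9.99 ± 0.04). Further down stood Creb5 (9.94 ± 0.08), Hemgn (9.85 ± 0.03), Eya1 (9.73 ± 0.07) and Slc10a1 (9.72 ± 0.07). Slc10a1 is a bile acid carrier of hepatocytes and Eya1 a developmental phosphatase. These values were steady: the median SD of the 100 highest genes was 0.06, against 0.24 over all detected genes.

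Other probes of the same genes did not follow. Of the 100 highest genes, 61 had at least 2 probes, and for these the brightest probe exceeded the dimmest by a median of 11.1 log2 units, against 2.24 over all detected genes with several probes. For 22 of the 61 the dimmest probe was not detected. Slc10a1 had a second probe at -2.87, and Septin3 one that no array had above background. The 3 probes of Sp110, an interferon-induced nuclear body protein, read 10.26, 5.50 and 3.37, and those of Ms4a4c 9.99, -0.07 and -1.11. The remaining 39 of the 100 genes had 1 probe, so nothing on the array bears on them. The same limit holds for Nanog, the pluripotency factor, whose single probe read 9.11 ± 0.06, for Snap25 of neuronal synapses (7.06 ± 0.14), and for Trp63 of stratified epithelia, which read 6.20 on 1 probe while its other was above background on 1 array. These are values of probes, and whether they report the named transcript was not tested.

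Ranked by their dimmest probe, the 2795 genes with 2 or more probes, all of them detected, gave another picture. This ranking was chosen after the first had been seen. Among its highest genes were Rps12 (7.63), Medag (7.42), Rpl38 (7.17), Rpl10 (7.14), Rps15 (6.96) and Rps13 (6.90). Apart from Medag, an adipogenesis gene, these encode ribosomal proteins. Snrpg of the spliceosome and Stmn1, which destabilises microtubules in dividing cells, were also high, both at 6.84. Ribosomal protein genes made up 30 of the 100 highest by this ranking and 3 of the 100 by the brightest probe. The rankings shared 4 genes. Of the 100 by the brightest probe, only 39 had 2 or more probes, all detected. The others could not enter the second ranking, which limits the overlap by construction. The plot of brightest and dimmest probes shows both sets.

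**Figure D2:**
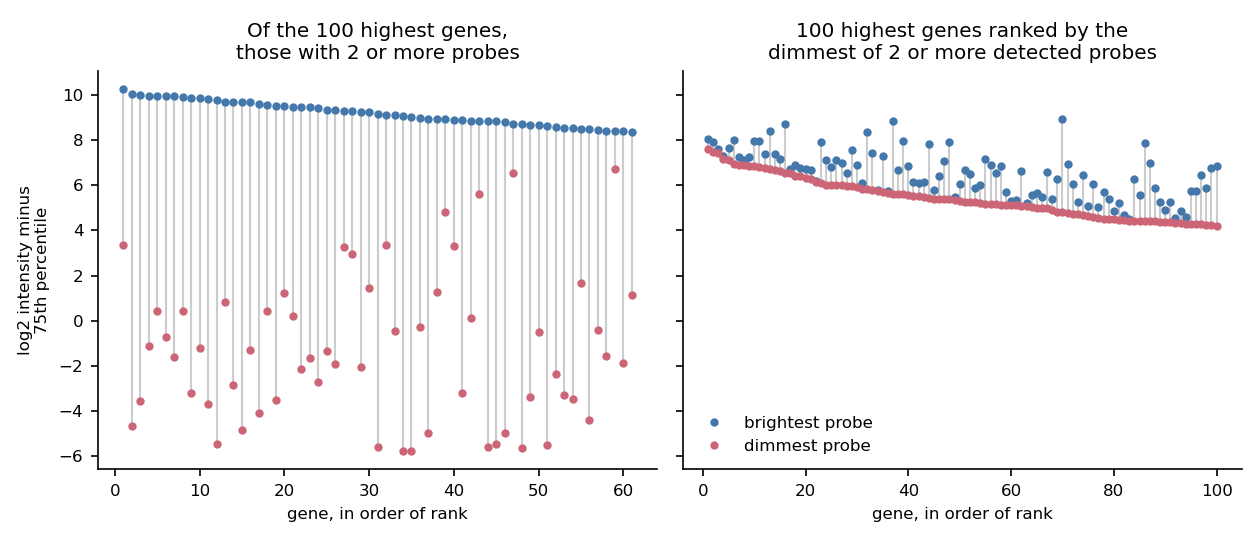
Levels (log2 intensity relative to the 75th percentile of each array, mean of 3 empty vector arrays) of the brightest probe (blue) and the dimmest probe (red) of each gene, joined by a grey line, in order of rank. Left, the 61 genes with 2 or more probes among the 100 highest by their brightest probe, with a median gap of 11.1; right, the 100 highest of 2795 genes when ranked by the dimmest of 2 or more detected probes.

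Genes of the cytosolic ribosome were high as a group, although by the brightest probe 3 of them were among the 100 highest genes. All 33 genes of the small cytosolic ribosomal subunit were detected, at a median level of 7.24, and 50 of 52 of the large subunit, at 6.61. For comparison the median over all detected genes was 0.53. Rps29 showed this on 3 probes, at 8.72, 6.89 and 6.56. Genes outside the main pattern were Rpl3l, which was absent, Rpl39l, which was intermittent, and Rpl10l, the lowest detected member at -3.10 ± 0.29. They are paralogues of Rpl3, Rpl39 and Rpl10 known from striated muscle and testis. They and the ribosomal genes above were named after their values were seen. Ribosomal protein genes have many processed pseudogenes of near-identical sequence, so their probes may gather more than 1 transcript. Mitochondrial ribosomal proteins were detected for 77 of 78 genes at a median of 2.26.

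Translation factors were all detected, 29 of 29, with a median of 5.22. Tpt1 (8.41 ± 0.09, lowest of 3 probes 6.74) and the elongation factor Eef1a1 (7.32 ± 0.01, second probe 5.71) were the highest, followed by Naca (6.81 ± 0.06) and Eef1d (6.52 ± 0.17). Genes of ribosome biogenesis and other Myc targets were detected for 32 of 32, with a median of 4.07. Npm1, the nucleolar phosphoprotein, read between 3.88 and 7.29 on its 5 probes. Ncl, nucleolin, had 6.09 ± 0.18. Chaperone genes were detected for 26 of 28 with a median of 4.50, led by Hsp90ab1 (7.76 ± 0.16) and the prolyl isomerase Ppia (7.53 ± 0.04). Housekeeping genes had a median of 6.98 over 25 detected of 26, led by Tuba1b (8.87 ± 0.06), whose second probe read 5.64.

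Energy metabolism was uniformly present. All 55 oxidative phosphorylation subunits were detected, with a median of 4.41 and a lowest level of 1.21, and 34 of them lay in the top 10% of detected genes. ATP synthase subunits Atp5e (7.16 ± 0.11), Atp5l (6.88 ± 0.13) and Atp5h (6.56 ± 0.10) were highest. Glycolysis and hypoxia genes were detected for 27 of 28, with a median of 2.19. Aldoa read 6.92, 6.49 and 7.48 and Pgam1 6.86, 6.49 and 7.39, both enzymes highest on array 3 and lowest on array 2. Gapdh stood between 3.85 and 7.17 on 7 probes. Egln1, an oxygen sensor that marks hypoxia inducible factor for decay, was the absent member of this list, on a single probe. Proteasome subunits were detected for 38 of 39. Psmb11, the subunit made in thymic epithelium, was absent.

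Genes of the dividing cell were present as a group. All 40 DNA replication genes were detected, with a median of 2.78 and no SD above 1. Mcm6, Mcm7 and Mcm4 of the replicative helicase had 7.25 ± 0.08, 6.41 ± 0.08 and 6.01 ± 0.04. Dut, which clears dUTP, had 5.52 ± 0.06, and Lig1, the ligase of lagging strands, 5.27 ± 0.14. Mitosis genes were detected for 31 of 32 with a median of 1.60. Mki67, the proliferation antigen, read 5.27 ± 0.25 and 4.36 ± 0.20 on its probes. Birc5, survivin, had 5.34 ± 0.23 on the brightest of 3 probes, and Cdca8 of the same chromosomal passenger complex had 4.35 ± 0.05. Cenpf, a kinetochore protein, was the absent member, on a single probe. Array 2 was the lowest for 18 of the 31 detected mitosis genes. The matching share over all detected genes is not given here for array 2.

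Among the regulators of G1, Cdk4 had 5.66 ± 0.06, with its other probes at 4.49 and 3.06. The CDK inhibitors divided. Cdkn2d (p19) had 4.34 ± 0.13, Cdkn1b (p27) 2.81 ± 0.47 and Cdkn1a (p21) 1.97 ± 0.42, while Cdkn2a (p16 and p19Arf), Cdkn2b (p15) and Cdkn1c (p57) were absent. Cdkn1c is known as a gene of quiescent stem cells and is imprinted. Ccnd1, cyclin D1, had 2.21, 1.70 and 0.40, with array 3 the lowest. Array 3 was lowest for 8 of the 20 detected members, close to its share over all detected genes (3875 of 12011).

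Stem and progenitor transcription factors were detected for 40 of 41 genes, at a median of 1.95. Ikzf2 of the Ikaros family (5.13 ± 0.06), Lmo2 (5.02 ± 0.30), Myb (4.81 ± 0.05) and Lyl1 (4.54 ± 0.07) were highest. Lmo2 and Lyl1 are partners in a complex that maintains stem cells, and Myb drives progenitor expansion. Stat5b, a signal carrier of cytokine receptors, had 3.67 ± 0.26. At the low end, Hoxa9 had 1.03, 1.37 and -1.11 and Hoxa10 -1.43, -0.15 and -2.72. Mycn had 3.52, 3.33 and 1.14. Array 3 was the lowest of the 3 in each of these, and for 29 of the 40 detected members, with a median difference of -0.42 from the mean of arrays 1 and 2. Over all detected genes that median was 0.03, and array 3 was the lowest for 3875 of 12011. The median of the list was 1.87 over arrays 1 and 2 alone.

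Surface markers of stem and progenitor cells, a list that also holds the factor Hoxb5, were detected for 26 of 28 genes. Cd44, the hyaluronan receptor, had 6.53 ± 0.05 on the brightest of 4 probes, and its dimmest read -2.02. The marrow homing receptor Cxcr4 had 5.62 ± 0.24. Spn, CD43, had 5.34 ± 0.11 and Cd93 4.73 ± 0.31. Procr had 0.03, 0.62 and -0.93, Vwf -0.57, -0.96 and -1.96, and Esam -2.26, -1.05 and -2.76. Each was lowest on array 3. Prom1 moved the opposite way, at -2.80, -3.24 and 0.95, and Cxcr4 was also highest on array 3, at 5.36, 5.64 and 5.85. Over the list, array 3 was lowest for 15 of the 26 detected genes and highest for 6. Over all detected genes it was lowest for 3875 and highest for 4534 of 12011. The 2 intermittent members, outside the rule for named genes, were Slamf1, a surface marker of long-term stem cells, and Hoxb5. In bulk RNA, fewer cells of a type and less RNA per cell cannot be told apart.

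Cytokine receptors were detected for 32 of 37 genes, whereas cytokines and growth factors were detected for 11 of 37. Il17ra (4.84 ± 0.23), Csf1r (4.26 ± 0.09 with all 3 probes detected), Il2rg (4.19 ± 0.36) and Il4ra (4.13 ± 0.16) were high. Csf3r, the receptor of G-CSF, read 7.91 ± 0.03 on a single probe. Osmr and Bmpr1a were absent. Of ligands, Angpt1 had 4.12, 4.86 and 3.33 and Vegfa 2.47, 3.83 and 3.51. Angpt1 is a ligand of Tek and is known from stem cells themselves. Kitl, the Kit ligand, was near the detection limit at -2.41 ± 0.82, and Epo, Csf2 and Csf3 were among 20 absent ligand genes.

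Early myeloid genes were the lineage class most fully represented. All 25 azurophil granule and early myeloid genes were detected, with a median of 3.74, and 11 of them lay in the top 10% of detected genes. Beside Mpo and the single Csf3r probe the highest was Ctsg, cathepsin G, with 6.36, 5.47 and 7.73. Nkg7 (5.68 ± 0.27) and Srgn (5.65 ± 0.40), which packs granule proteases, followed. Elane, neutrophil elastase, had 3.61, 2.28 and 5.33. Ms4a3, a marker of granulocyte and monocyte progenitors, had 3.87, 2.91 and 6.13, Hp 3.14, 2.38 and 5.76, and Cebpe, a factor of late granulocyte maturation, -1.67, -2.69 and 0.19. In Ctsg, Elane, Ms4a3, Hp and Cebpe alike, array 3 was highest and array 2 lowest. Over the list, array 3 was highest for 22 of 25 genes, against 4534 of 12011 over all detected genes. The median difference of array 3 from the mean of the others was 0.70, and the median of the list without it was 3.26. Being highest on array 3 was not particular to this list. Array 3 was also highest for 44 of 55 oxidative phosphorylation genes, 22 of 26 detected chaperone genes and 23 of 32 Myc targets. Their median differences were smaller, at 0.23, 0.22 and 0.22. Of 40 DNA replication genes it was highest for 13.

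Genes of mature neutrophils were divided. Of 19 measured, 7 were detected, 4 intermittent and 8 absent, and Ltf, Ngp, Mmp9, Fpr1, Fpr2, Chil1, Retnlg and Stfa1 were absent. The detected members include Lcn2, lipocalin 2, at 0.07, -1.05 and 4.59, and S100a9, a calprotectin subunit, at -0.78, -1.22 and 3.66. Array 3 alone held both high. S100a8, its partner, and Chil3 were intermittent, with array 3 at 3.24 and 3.29 and both other arrays below -3. Pglyrp1 followed the same order at 1.66, 1.25 and 3.27. Cxcr2, the chemokine receptor of mature neutrophils, was detected but did not have this order, at -1.01, -1.86 and -1.30. Chemokine receptor and homing genes as a list were detected for 16 of 27 (59.3%), near the 58.1% of all genes. Itgam, CD11b, is a marker used to exclude myeloid cells from the LSK gate: its brightest probe read 7.74 ± 0.08, and its others -0.81 and -2.07. The summed level of the 19 genes, in multiples of each array's 75th percentile, was 230, 204 and 284 on the empty vector arrays and 176 to 228 on the other 6, and the Itgam probe makes up most of it. The part of maturing granulocytes in the values of array 3 was not tested.

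Lymphoid genes were uneven across the arrays. Of 13 lymphoid priming genes 9 were detected (69.2%, against 58.1% of all genes), with a median of 1.29. Dntt, the template-independent DNA polymerase of early lymphoid progenitors, had 6.29, 6.98 and 3.89. Satb1 had 1.23, 1.88 and 0.96, and Cd52 2.64, 2.16 and 1.26. Array 3 was the lowest for all 9 detected members, against 3875 of 12011 over all detected genes. The summed level of the list was 112, 167 and 38.6 on the empty vector arrays and 67.6 to 167 on the others. B cell genes were detected for 8 of 22, and for 12 of 22 without array 3. Cd79a, Ebf1, Igll1, Ms4a1, Blk, Fcrla and Spib were absent, while Cd22 (3.80 ± 0.09) and Cr2 (1.70 ± 0.14) had steady signal and Pax5 was low at -1.88 ± 0.29. T and NK cell genes were detected for 15 of 29 (51.7%), near the 58.1% of all genes. Cd4 (1.64 ± 0.13) and Prf1 (1.53 ± 0.06) were the highest, and Cd3d, Cd3g, Cd247, Cd8a, Cd8b1 and Cd2 were among the 10 absent.

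Megakaryocyte genes were detected for 17 of 23 (73.9%, against 58.1% of all genes) at a median of 0.39. Nfe2, a transcription factor of platelet formation, had 3.38 ± 0.08, F2r 2.77 ± 0.25, and Pf4, platelet factor 4, 3.56, 3.39 and 1.37. The collagen receptor Gp6 and P2ry12, proteins of the mature platelet, were absent. Erythroid genes were detected for 16 of 27 (59.3%), near the share of all genes. Tfrc, the transferrin receptor, had 3.38 ± 0.45 on the brightest of 3 probes and Ermap 3.15 ± 0.04. Sptb, Epb42 and Trim10 of later red cells were absent. Here array 1 was the outlying one: Car1 read 3.41, 0.89 and 0.78, with its second probe at 0.50, -1.90 and -1.79, and Hba-a1 2.03, -0.70 and -0.10. Array 1 was the highest for 14 of 16 detected erythroid genes, and its matching share over all detected genes is not given here. Hba-a1 and Hba-a2 are near-identical copies, so their probes cannot be read as separate genes. Mast cell, basophil and eosinophil genes were detected for 10 of 18 (55.6%), also near the share of all genes, led by Cpa3 (2.25 ± 0.52). Prg2, eosinophil major basic protein, read 1.48, -1.66 and -2.01, again high on array 1. Macrophage and dendritic cell genes were detected for 9 of 22, with Mertk, Mrc1, Timd4, C1qc, Siglec1 and Xcr1 absent. Siglech, a marker of plasmacytoid dendritic cells, read 4.58 on 1 probe and was not above background on its other.

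**Figure D3:**
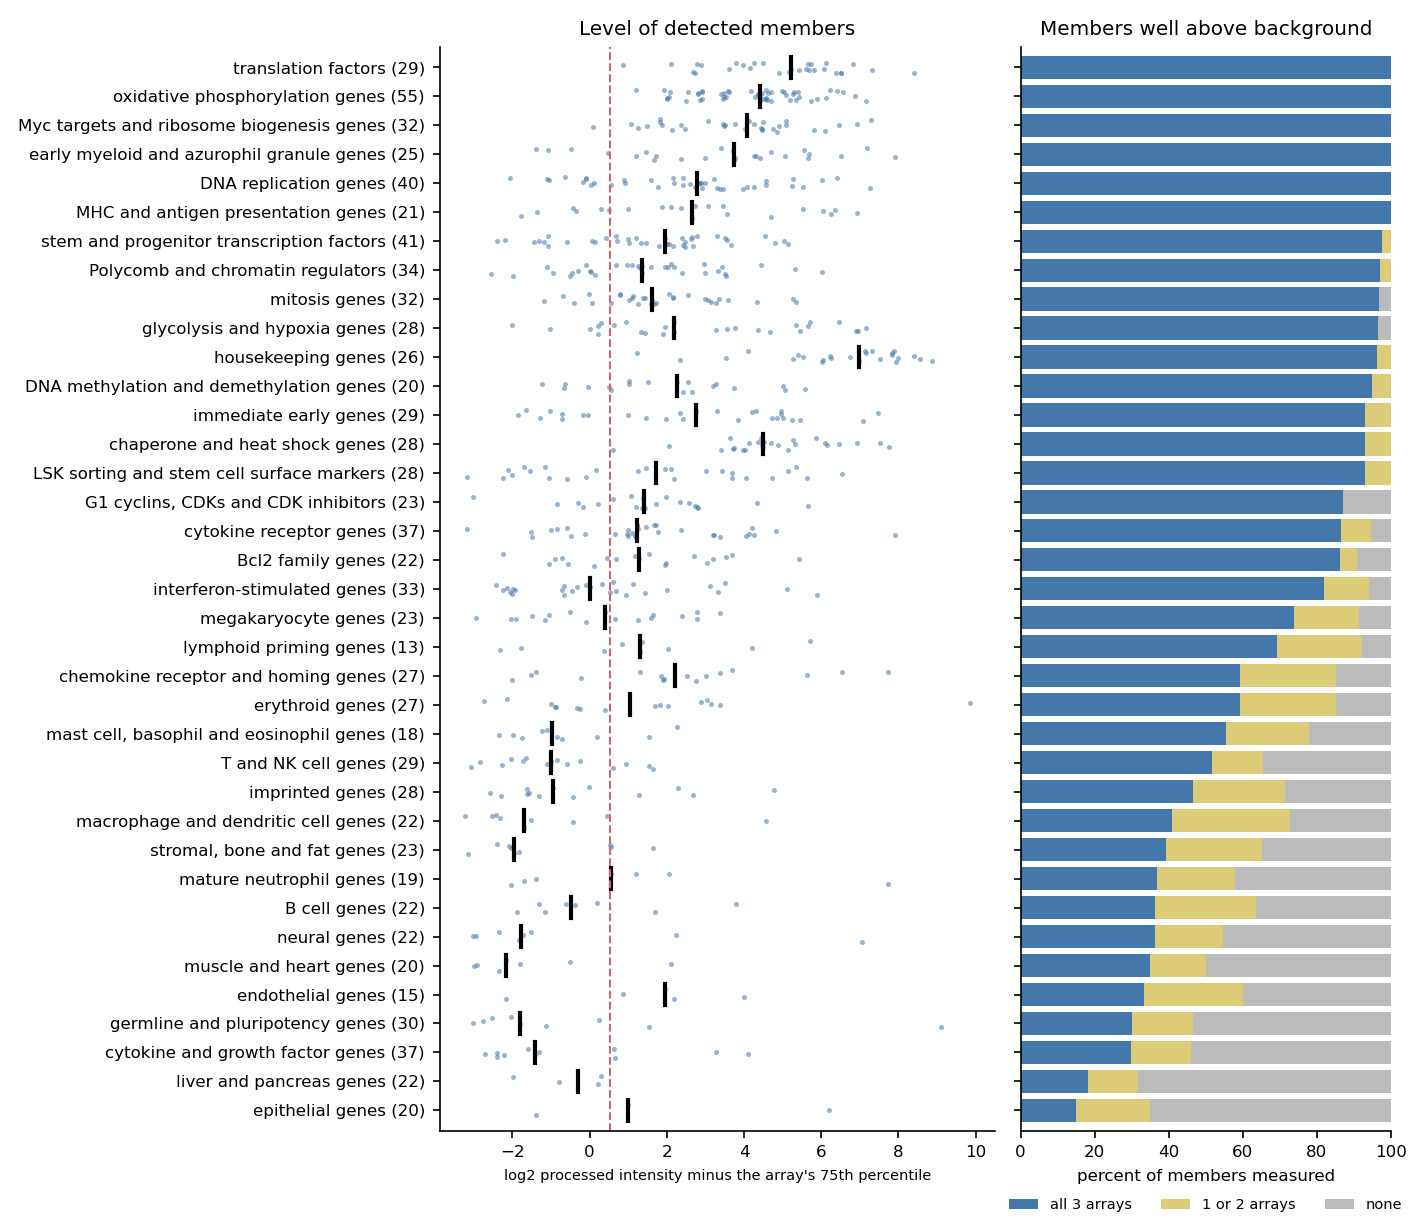
Gene lists of the empty vector arrays, ordered by the share of members detected, with the number measured in brackets. Left, mean level of each detected member (points) and their median (black bar), as log2 intensity relative to the 75th percentile of each array, with the median of all detected genes (0.53) dashed; right, the percent of members well above background on all 3 arrays, on 1 or 2, or on none, from all 29 translation factors to 3 of 20 epithelial genes.

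Genes of signalling and stress responses were mostly detected. Immediate early genes, which dissociation and sorting are known to induce, were detected for 27 of 29 with a median of 2.75. Jund (7.48 ± 0.11) and Fosb (7.08 ± 0.27) were highest. Egr1 had 5.74, 5.93 and 4.08, Nr4a1 4.13, 5.94 and 4.78, and Fosl2 3.80, 5.84 and 5.40, so that these genes did not share 1 outlying array. Over the list, array 3 was lowest for 15 of 27 genes, against 3875 of 12011 over all detected genes. Its median difference from the mean of arrays 1 and 2 was -0.46. Interferon-stimulated genes were detected for 27 of 33 at a median of 0.00, with Ifitm3 (5.90 ± 0.12) and Ifitm2 (5.11 ± 0.25) at the top and Ifit1 and Gbp4 absent. Oas2 read -1.86, -0.99 and -3.57 and Ifit2 -1.84, -1.15 and -3.20. Array 3 was lowest for 18 of the 27, beside the same 3875 of 12011 over all detected genes. All 21 genes of antigen presentation were detected, with H2-K1 at 6.93 ± 0.13 and B2m at 6.26 ± 0.12. In the Bcl2 family, 19 of 22 were detected, led by Mcl1 (5.43 ± 0.26), a survival factor of stem cells, with Bik and Hrk absent. Pmaip1 (Noxa) had 1.42, 1.16 and 3.28.

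Chromatin regulators were almost all detected, 33 of 34, at a median of 1.35, led by the histone-binding proteins Rbbp4 (6.01 ± 0.06) and Rbbp7 (5.32 ± 0.04). The genes of DNA methylation and its removal were detected for 19 of 20 at a median of 2.27. Uhrf1, which brings Dnmt1 to newly replicated DNA, had 5.57 ± 0.16, with a second probe at 4.08. The methyltransferases, named here as the subject of the study, had 1.51 ± 0.07 for Dnmt1, 1.03 ± 0.47 for Dnmt3a and 3.20 ± 0.24 for Dnmt3b. These are levels of separate probes and do not rank the enzymes. Tet2, which oxidises methylated cytosine, had 2.06, 2.31 and 3.25. Dnmt3a ran at 1.14, 1.44 and 0.51, lowest on array 3, where Tet2 was highest. Array 3 stood apart for many genes, and a relation between Dnmt3a and Tet2 was not tested. Imprinted genes were detected for 13 of 28. Gnas (4.77 ± 0.16) and Ube3a (2.67 ± 0.18) were high, and Igf2, Meg3, Peg3, Zim1, Ascl2, Kcnq1 and Dcn were absent besides Cdkn1c. Xist, the RNA that coats the inactive X chromosome, had 5.65 ± 0.21, and the Y-linked genes Ddx3y, Eif2s3y, Kdm5d and Uty were absent.

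Genes of other organs formed the absent end. Liver and pancreas genes were detected for 4 of 22, epithelial genes for 3 of 20, muscle and heart genes for 7 of 20 and neural genes for 8 of 22. Alb, Apoa1, Ahsg and Apoc3 of liver were absent, as were Cdh1, Epcam and Krt19 of epithelia, Myh1, Mb and Actc1 of muscle, and Gria2, Nefl and Gad1 of neurons. Some members with signal rested on a single probe, such as Myod1 (2.10 ± 0.12) and Ins2 (0.21 ± 0.03). Endothelial genes were detected for 5 of 15, and for 8 of 15 without array 3, with Cdh5, Flt1, Sox17 and Flt4 absent. Egfl7, which blood progenitors are also known to make, had 4.27, 4.56 and 3.14. Stromal genes were detected for 9 of 23, with Col1a1, Lepr, Dcn and Pdgfra absent. Of germline and pluripotency genes 9 of 30 were detected and 16 absent. Olfactory receptors were detected for 78 of 1071 genes (7.28%) and vomeronasal receptors for 21 of 252 (8.33%). Keratin-associated proteins of hair, by contrast, had 22 of 51 detected (43.1%). Among developmental families, 14 of 39 Hox genes and 5 of 35 protocadherins were detected.

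Detected and absent genes also differed in the sequence before their start. The 250 bases upstream of the most upstream RefSeq start (GRCm38.p6) were matched by symbol for 15742 of 19202 protein-coding genes. CpG sites in these promoters are the sites that DNA methyltransferases act on, and promoters rich in them are known to serve broadly expressed genes. Detected genes had a median of 15 CpG sites, intermittent genes 6 and absent genes 3. Promoters with at least 10 sites made up 70.6%, 40.2% and 25.8% of the classes. Within the detected genes the median went from 12 to 17 between the lowest and the highest of 5 equal bins of signal. The letters TATAAA stood on either strand in 7.27% of detected, 14.1% of intermittent and 20.2% of absent genes' promoters, against 12.4% of all protein-coding promoters. The letters CCAAT, on either strand, did not follow the classes, at 36.8%, 36.2% and 35.1%, against 36.5% of all. A match of one is never a match of the other, although their ends may overlap. These are descriptions of sequence, with no test.

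Lists matched for at least 80% of their genes differed too. The median was 18 sites for DNA replication genes, of which 33 of 40 were matched, and 14 for oxidative phosphorylation genes, with 43 of 53 matched. It was 3 for liver and pancreas genes, with 18 of 21 matched, and 1 for olfactory receptors, whose promoters held TATAAA in 38.9%. Fewer than 80% of the azurophil granule, erythroid, surface marker and ribosomal protein genes were matched, so the check is void for those lists. For the members that were matched, the median was 4 sites in azurophil granule genes (18 of 24 matched) and 18 in genes of the small ribosomal subunit (24 of 31). Nothing is read from these medians. These 5 promoters show detected genes with many and with few sites beside an absent gene. CpG sites are in capitals, 5′ to 3′ on the strand of the gene. Rpl13a, a ribosomal protein gene at 5.32 ± 0.08, has 24 sites in chr7:45128746-45128995 (minus strand). Kit has 17 in chr5:75574737-75574986 (plus strand), Cd34 has 6 in chr1:194938571-194938820 (plus strand), Mpo has 2 in chr11:87793534-87793783 (plus strand), and Alb, absent, has 2 in chr5:90460620-90460869 (plus strand).
Rpl13a: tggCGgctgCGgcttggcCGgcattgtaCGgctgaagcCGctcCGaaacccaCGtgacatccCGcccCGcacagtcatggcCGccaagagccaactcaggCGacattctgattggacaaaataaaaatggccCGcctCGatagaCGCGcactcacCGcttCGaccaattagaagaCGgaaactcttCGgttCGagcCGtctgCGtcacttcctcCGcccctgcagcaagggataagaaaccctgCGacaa
Kit: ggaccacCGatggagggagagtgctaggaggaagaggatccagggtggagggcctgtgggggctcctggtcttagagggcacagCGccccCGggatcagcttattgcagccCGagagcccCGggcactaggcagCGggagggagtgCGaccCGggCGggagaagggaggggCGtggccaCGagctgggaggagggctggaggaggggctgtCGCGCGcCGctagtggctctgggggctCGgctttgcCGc
Cd34: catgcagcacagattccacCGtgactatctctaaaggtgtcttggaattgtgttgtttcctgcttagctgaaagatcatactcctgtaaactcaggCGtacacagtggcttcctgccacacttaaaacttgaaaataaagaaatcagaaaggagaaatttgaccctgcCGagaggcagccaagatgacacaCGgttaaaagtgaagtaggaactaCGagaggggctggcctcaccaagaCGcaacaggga
Mpo: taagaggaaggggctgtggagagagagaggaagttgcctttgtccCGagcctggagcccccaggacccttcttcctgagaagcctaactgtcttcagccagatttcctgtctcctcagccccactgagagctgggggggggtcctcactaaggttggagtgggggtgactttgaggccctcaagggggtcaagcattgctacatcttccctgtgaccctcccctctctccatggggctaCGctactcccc
Alb: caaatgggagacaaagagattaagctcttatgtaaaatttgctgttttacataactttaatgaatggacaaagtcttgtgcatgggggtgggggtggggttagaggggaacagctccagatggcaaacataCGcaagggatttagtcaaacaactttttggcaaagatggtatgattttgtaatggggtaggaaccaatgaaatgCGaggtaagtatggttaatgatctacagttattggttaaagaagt
Kit and Mpo both lay in the top 10% of detected genes, with 17 sites in one window and 2 in the other. None of the 5 windows holds TATAAA, and CCAAT is in those of Rpl13a and Alb.

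**Figure D4:**
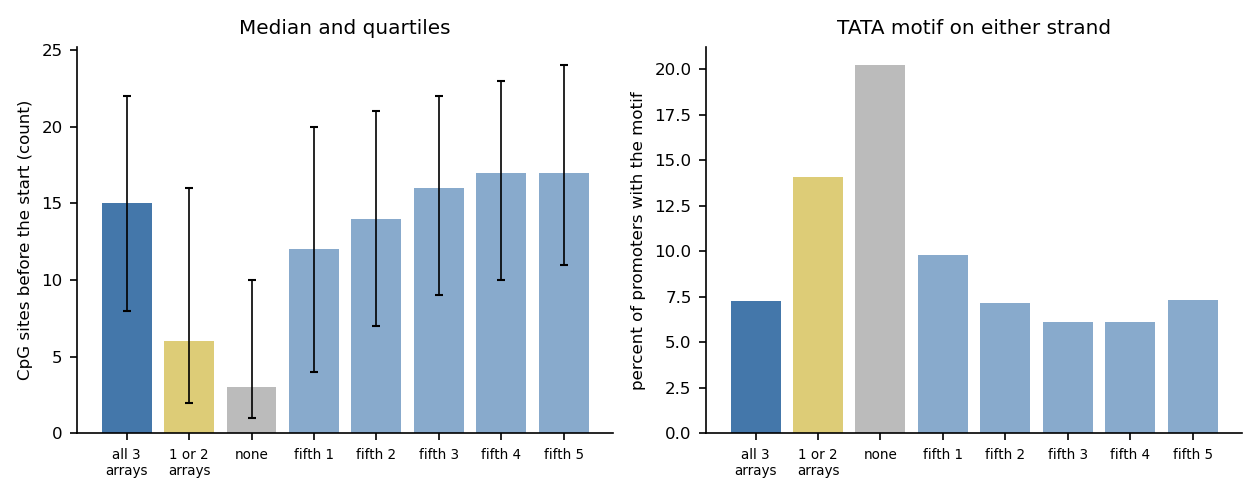
Promoters of protein-coding genes by detection class on the empty vector arrays (all 3 arrays, 1 or 2, none) and, for detected genes, in 5 equal bins of signal from lowest to highest. Left, median count of CpG sites in the 250 bases before the start, with quartiles as whiskers (15, 6 and 3 for the classes); right, percent of promoters with the TATA motif (7.27%, 14.1% and 20.2%).

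The spread between the 3 arrays was small for most genes. The median SD of a detected gene was 0.24, and 52.8% of detected genes had an SD below 0.25. Across detected genes, Pearson's r was 0.981 between arrays 1 and 2, 0.975 between 1 and 3, and 0.968 between 2 and 3, a description over genes, which are not independent. On 230 detected probes spotted at least 5 times per array, spots of 1 array had a median SD of 0.0868, and the arrays a median SD of 0.258. Spread was larger for dim genes: the median SD went from 0.34 to 0.16 between the lowest and the highest of 5 equal bins of signal. The steadiest genes were Psd3, Iqcd, Mettl5, Fam234b and Med16, each with an SD of at most 0.01. Mettl5, a methyltransferase of ribosomal RNA, read 5.06, 5.06 and 5.07.

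An SD above 1 was reached by 292 genes, 2.43% of those detected. In 205 of the 292 (70.2%) array 3 was the furthest from the others, 92 times above and 113 times below, whereas over all detected genes it was the furthest in 37.7%. Without array 3, 184 genes had an SD above 1 over the remaining arrays. The genes of largest SD were Wfdc21 (-2.54, -2.54 and 3.02), Lcn2, S100a9 and Prom1. Mrgpra2a read -1.09, -1.97 and 2.07 and its near-identical neighbour Mrgpra2b -1.19, -2.08 and 2.08. Dmkn had -1.06, -1.34 and 2.46, and its second probe read -1.22, -1.72 and 2.11. Lgals3, galectin-3 of myeloid cells, had -3.01, -1.87 and 0.88. In each of these array 3 was high and both other arrays were close together or apart by less than the step to array 3.

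Genes of large SD that were low on array 3 included Tspan6 (-0.40, 0.52 and -3.38), a tetraspanin, Cox6a2 (1.26, 1.17 and -2.20), a muscle form of a cytochrome oxidase subunit, and Bsn (1.21, 2.34 and -1.20). Cnn3, a calponin, read 2.17, 2.93 and -0.55, and its second probe gave the same order at 1.30, 1.73 and -0.95. Arrays 1 and 2 were the furthest for 43 and 44 genes. Array 1 was high for Prg2, Car1, Hba-a1 and Sphk1 (1.39, -1.09 and -1.97), a sphingosine kinase. Array 2 was low for Mt2, metallothionein 2 (2.41, -0.12 and 2.28), and for Prtn3, proteinase 3 (3.22, 1.45 and 4.26).

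**Figure D5:**
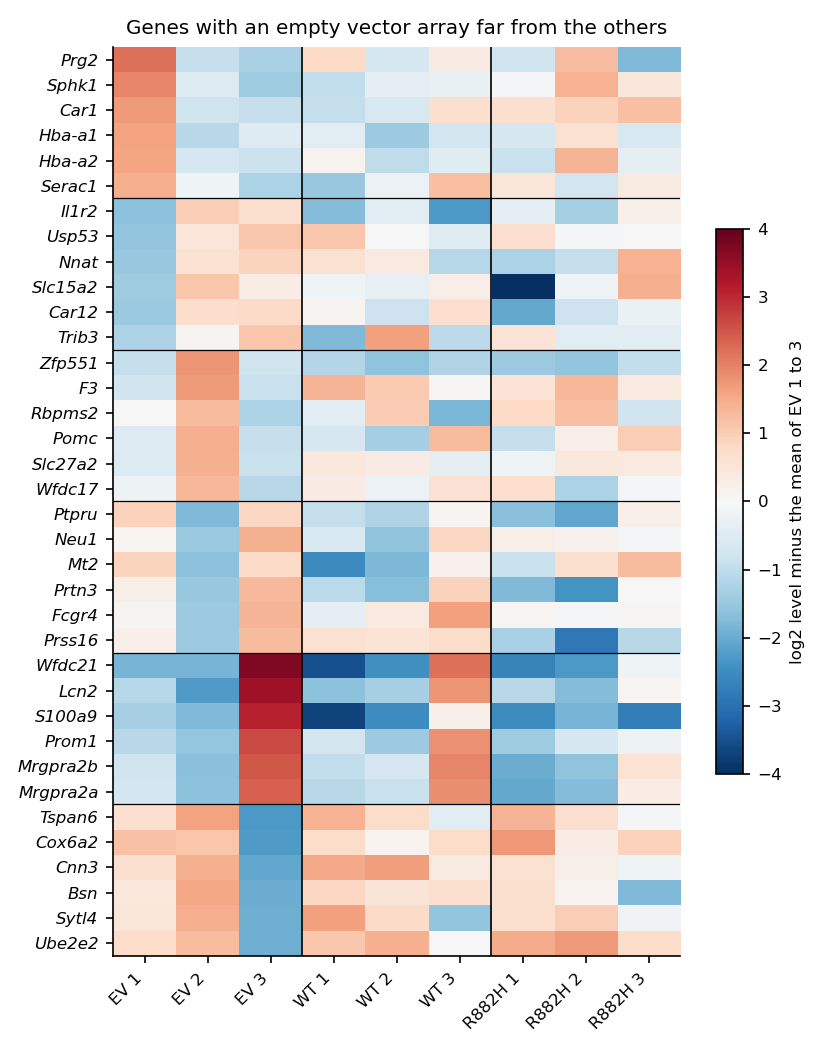
Level of genes with an SD above 1 over the empty vector (EV) arrays on all 9 arrays, as the log2 difference from the mean of EV 1 to 3 (colour, from -4 to 4). Horizontal lines part 6 blocks of 6 genes in which EV 1, EV 2 or EV 3 was furthest above or below the others. Wfdc21, Lcn2, S100a9, Prom1, Mrgpra2a and Mrgpra2b are also higher on WT 3 than on WT 1 and WT 2.

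In the other groups the arrays with number 3 lay on the same side for most of these genes. Of the 205 genes, the wild-type array 3 lay on the same side of its group in 168 (82.0%) and the R882H array 3 in 165 (80.5%), against 59.6% and 60.0% of all detected genes. Lcn2 read -0.43, -0.14 and 2.96 on the wild-type arrays and 0.10, -0.55 and 1.28 on those of R882H. Dntt read 6.94, 6.45 and 5.25, and 7.05, 6.33 and 6.39. Cblc went another way: it was 0.82 on the empty vector array 3 and between -2.80 and -2.32 on the other 6 arrays. What the arrays numbered 3 share was not tested.

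Detection calls were then set beside those of the other 6 arrays. On those, 56.1 to 64.8% of probes were well above background, against 53.4 to 57.6% on the empty vector arrays. Only 1 of them, a wild-type array, shared the slide of the empty vector arrays, so group and slide cannot be fully told apart. Of detected genes, 11664 (97.1%) had a probe well above background on all 6 other arrays, and 1, Cys1, on none. Of absent genes, 14 (0.221%) were above background on all 6 and 68.4% on none. The empty vector group was set against the mean of the other groups with limma over 13116 genes detected in at least 1 group. No gene reached an adjusted p under 0.05 (0 of 13116, 0%), and 6.72% had an unadjusted p under 0.05, with 296 genes higher and 586 lower in empty vector cells. With arrays scaled by their median the split was 737 higher and 289 lower. It was 394 and 432 with another background correction, normexp, and 651 and 766 with the replicate number as a block. The balance of directions thus changed with the processing, and no direction is read from it. The smallest adjusted p by limma was 0.152, for Olfr635 on the lower side, where Adamdec1, Rabggta, C1qtnf1 and Lenep followed. Olfr635 and C1qtnf1 were absent in empty vector cells and Adamdec1 and Lenep intermittent, so no size is given for them, and such genes entered the comparison only through the groups where they were detected. Rabggta, a subunit of a Rab prenylating enzyme, was detected, with a log2 difference of -1.49 ± 0.23 (SE). On the higher side stood Zbtb16 (0.68 ± 0.12), a factor of innate lymphoid and stem cells, Aldh5a1 (0.88 ± 0.17), Ddi2 (0.68 ± 0.13), Cacul1 (0.91 ± 0.19) and Cuedc1 (1.08 ± 0.23). None of these passed the adjusted threshold, the highest adjusted p among them by limma being 0.499. Samples were grouped by their labels, and the doubt over array 3 applies to this comparison as well.

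The panel genes showed no difference that this design could call. The log2 difference of empty vector from the other groups by limma was -0.21 for Kit (95% interval -0.65 to 0.24), 0.21 for Ly6a (-0.55 to 0.98), -0.18 for Cd34 (-0.69 to 0.33), 0.43 for Mpo (-0.36 to 1.22) and -0.24 for Flt3 (-0.96 to 0.48). Intervals this wide do not show that the levels were equal. Among the lists, 2 of 28 surface marker genes, 3 of 40 stem and progenitor factors and 2 of 25 azurophil granule genes had an unadjusted p under 0.05, shares near the 6.72% of all genes tested. The shares were larger for muscle and heart genes (3 of 9), neural genes (3 of 9), B cell genes (4 of 15) and erythroid genes (5 of 21). In empty vector cells only 7 muscle and heart, 8 neural, 8 B cell and 16 erythroid genes were detected. The others tested entered through the groups where they were detected. Neither the larger shares nor the directions of these lists can therefore be read. No member of any list passed the adjusted threshold.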

How the data were processed

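RNA of 9 LSK samples was measured on 1-colour Agilent mouse arrays. Per the file headers, the authors deposited scanner output of Feature Extraction 10.10.1.1 on design 028005, in which the processed intensity is already background-subtracted. Each array's 75th percentile of log2 intensity was subtracted from the deposited values after control and outlier spots were left out and spots of a probe were averaged. Of 55681 probes, 27235 had 1 gene symbol, giving 20660 genes, each represented by its brightest detected probe. The precision is limited by the number of arrays. The authors' deposited value table holds log2 values centred per probe: 7 of its 9 columns hold another array than the one they are named for, 4 of them of another group, so it served only for that check.

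The comparison with the other arrays used limma 3.58.1 in R 4.3.3 (lmFit and eBayes, Benjamini-Hochberg adjustment over all genes tested) and was tested on simulated data. Other steps used Python 3.11.15, pandas 2.3.3 and numpy 2.4.6. Promoters came from RefSeq (GRCm38.p6), matched by symbol, with chromosome 18 not used here.

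The members and gene lists were chosen with earlier results of these data known. Named by rule were the 25 highest detected genes, the 6 nearest the median, the 15 of largest and 5 of smallest SD, the panel, and in each list up to 5 highest, 4 most variable and 6 absent members, in alphabetical order. For the comparison they were the 5 of smallest p in each direction. Clone names and predicted gene models were not named. Other genes were named after their values were seen. Alternatives covered the background correction, scaling, detection call, choice of probe, blocks and leaving out arrays. A few of the genes so chosen are left unreported.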

Additional observations from a re-analysis of the deposited data

How the results depend on the processing

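The count of detected genes (12011) moved by less than 1.5 times under every alternative run, from 12003 to 15263. With the looser call of a signal above background, 1896 genes in place of 6343 were absent, by the construction of that call. The same call moved 11 of 38 list counts by over 1.5 times, all upward, among them B cell (8 to 17), stromal (9 to 16), epithelial (3 to 9), liver and pancreas (4 to 8) and endothelial genes (5 to 9). Without array 3, or with 2 of 3 arrays required, the endothelial count was 8. The number of genes with an SD above 1 (292) was 78 with normexp, run on the median signal because the files carry no mean signal, 1590 without a detection filter, and 184 to 500 with 1 array left out; fewer arrays enter those. Of the 100 highest genes, 58 were shared when a gene took the median of its detected probes and 4 when it took its dimmest. The ranking by the dimmest probe was chosen after seeing the data, and only 39 of the 100 genes could enter it. Against the other 6 arrays, limma called 0 genes, and 0 to 1 with 1 array left out: without empty vector replicate 1 it called Parvb, lower by a log2 difference of -2.54 (adjusted p 0.0452). At an unadjusted p under 0.05 there were 296 genes higher and 586 lower, in all 656 to 1327 with 1 array left out (1327 without wild-type replicate 3), and 1417 with the replicate number as a block. The causes were not tested. Same-numbered samples deviated together, with correlations that were all positive, from 0.0886 to 0.325. The numbers were not used to pair the samples, because the lowest of these fell short of the rule used. Structure shared by same-numbered samples therefore stays in the spread of the main comparison. With the replicate number as a block the median SE was 0.173, against 0.201 without. Without the arrays numbered 3, also chosen after seeing the data, 0 genes were called and 1158 had an unadjusted p under 0.05.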

Other observations

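Probes without a gene symbol were 28446 of 55681. They made up 28 of the 100 brightest probes and 512 of the 1000 brightest on the empty vector arrays, so the ranking of named genes leaves out much of the bright end. The share of probes well above background on all 3 arrays was 42.7% without a symbol and 57.1% with one.

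Among chromosomes, the share of genes detected in empty vector cells ran from 52.9% on chromosome 7 to 64.6% on chromosome 5, with 47.8% on X (366 of 766) and 10% on Y (2 of 20). Histone genes were detected for 48 of 69 at a median level of 3.77, and aminoacyl-tRNA synthetases for 32 of 34 at 1.16.

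The 14 genes absent on the empty vector arrays but well above background on all 6 others were Defb23, Gcgr, Klre1, Lrrc38, Mtss2, Npy4r, Olfr470, Olfr577, Olfr91, Pir, Ppm1n, Slc7a15, Syndig1 and Zfyve16. They were named after their calls were seen, and the difference was not tested for the list. Up to 64.8% of probes were well above background on the other arrays, against at most 57.6% on the empty vector arrays.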
